A study of Mus musculus with 4 samples.

Results

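The genes described here take part in the lysosomal breakdown of proteins or lipids, or inhibit its proteases. They were named as a list of 5 and looked up by their Ensembl identifiers among the isoforms of 6 classes of mouse retinal cells. They are Cst3, which encodes the protease inhibitor cystatin C, the cathepsin genes Ctsb, Ctsd and Ctsl, and Psap, which encodes prosaposin. All 5 were found, with 8 isoforms, among 13452 Ensembl genes and 44325 isoforms. Cst3 was selected on its unannotated isoform, the most abundant in the table with 842957 counts. The next unannotated isoform, of Sag, had 325422 counts.

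The retinas came from male wild-type C57BL6/J mice and gave 4 single-cell cDNA libraries read as long nanopore reads. No enrichment was made for 2 of them (1 at postnatal day 40, the other with no age in the labels used here), 1 had CD73 enrichment at postnatal week 8 and 1 had CD90.2 enrichment at postnatal month 4. CD73 marks photoreceptors and CD90.2 marks neurons; the protocol text has magnetic columns remove the former and retain the latter, while the series design text names sorting by flow cytometry. The deposited counts stand in 6 columns, for amacrine cells, bipolar cells, cones, Müller glia, rods and ganglion cells, which name no library. Each class is therefore 1 pooled sample without replicates, and classes could not be tested against each other. Which libraries fed each column is not given, so a class cannot be told apart from the enrichment and age of the mice behind it.

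Lysosomal cathepsins cut proteins that cells take up or turn over. Cathepsins B and L are cysteine proteases and cathepsin D is an aspartic protease, which in the eye is best known for the breakdown of shed photoreceptor outer segments in the pigment epithelium. Cystatin C is a secreted inhibitor of cysteine cathepsins, and prosaposin is cut in lysosomes into the saposins, small proteins that help enzymes reach their lipid substrates.

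The column totals ran from 3509890 counts in ganglion cells to 55437340 in rods. Levels are given as CPM (counts per 1000000 of the class total), with an exact 95% Poisson interval, and shares of a gene's counts with an exact Clopper-Pearson 95% interval. Both treat counts as independent and cover counting error only, with no spread between mice or libraries. They are too narrow if several reads come from 1 molecule. Of 36 markers of the 6 classes, 35 were highest in their own class. The exception was the Müller glia marker Dkk3, at 48.8 CPM in Müller glia against 58.1 CPM in amacrine cells. The Müller glia column also held counts of markers of cell types that have no column. All 8 of 8 microglial markers were listed, and their summed level was 1720 CPM in Müller glia, 740.1 CPM in rods and between 16.2 and 145 CPM in the other classes. None of them was at 0 in Müller glia, rods or bipolar cells, 1 was at 0 in amacrine cells, 2 in cones and 4 in ganglion cells. The 6 pigment epithelium markers summed to 8878 CPM in Müller glia, of which Ttr gave 8443 CPM and Rpe65 58.4 CPM, and to between 2.85 and 62.4 CPM elsewhere. Best1 was at 0 in Müller glia. Summed markers of macrophages (969 CPM), pericytes (355 CPM), astrocytes (114 CPM) and endothelial cells (9.29 CPM) were also highest in Müller glia. Those of horizontal cells were highest in amacrine cells, at 72.9 CPM against 10.4 CPM in Müller glia. The 6 rod markers summed to 21710 CPM in rods and 1278 CPM in Müller glia (5.89% of the rod level), and all 6 were at 0 in ganglion cells. What part these other cells have in the Müller glia and rod values below was not tested.

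Short stretches tell apart isoforms of 3 of these genes, and they are shown first: the shares below turn on those of Psap and Ctsl, and that of Ctsd says which annotated form was listed. All sequences were read from the GENCODE M21 transcripts on GRCm38, and run 5′ to 3′ through spliced coding exons. In Psap, exon 8 of 15 has 9 nt (chr10:60297537-60297545, plus strand), and the 2 listed isoforms differ in this exon alone. Its bases are in capitals between 40 nt of exon 7 and 40 nt of exon 9, and the lower line is the isoform that leaves it out.
Psap with the small exon: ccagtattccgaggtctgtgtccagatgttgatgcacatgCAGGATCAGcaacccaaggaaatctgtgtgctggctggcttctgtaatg
Psap without the small exon: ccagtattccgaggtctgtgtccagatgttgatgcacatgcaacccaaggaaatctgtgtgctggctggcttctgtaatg
In Ctsl, a minor isoform carries 4 nt (chr13:64368112-64368115, minus strand) at the end of exon 3, in capitals, that the annotated coding transcript ENSMUST00000021933.7 splices out.
Ctsl with the added stretch: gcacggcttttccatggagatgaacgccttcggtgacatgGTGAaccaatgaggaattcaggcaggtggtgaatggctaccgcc
Ctsl, annotated form: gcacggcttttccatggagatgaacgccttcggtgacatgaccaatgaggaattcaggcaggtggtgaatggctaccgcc
In Ctsd, the single listed isoform has 18 nt (chr7:142377333-142377350, minus strand) at the end of exon 6, in capitals, that the shorter annotated transcript ENSMUST00000066401.6 lacks.
Ctsd as deposited: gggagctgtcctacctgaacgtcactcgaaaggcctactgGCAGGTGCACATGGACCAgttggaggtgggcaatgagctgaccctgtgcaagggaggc
Ctsd, shorter annotated form: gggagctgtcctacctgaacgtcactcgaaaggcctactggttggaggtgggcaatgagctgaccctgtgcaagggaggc
The 9 and 18 nt stretches are multiples of 3 and keep the reading frame, and the 4 nt stretch does not.

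Cst3 (ENSMUSG00000027447.6), the inhibitor, was listed with 1 isoform, so its gene level and isoform level are the same number. Müller glia had 11998 CPM (73585 counts, 95% interval 11912 to 12085) and rods 11472 CPM (636000 counts, 11444 to 11501). Cones had 4476 CPM, bipolar cells 1352 CPM, amacrine cells 1199 CPM and ganglion cells 1031 CPM. Cst3 was thus high in glia and rods, intermediate in cones and low in the 3 classes of inner neurons, with 11.6 times as much in Müller glia as in ganglion cells. No 2 neighbours in this order had overlapping intervals. The order of the leading pair rests on the scaling, however: Müller glia over rods was 1.05 with column totals and 0.965 when the 20 most abundant genes of each column were left out of the totals. Rod markers in Müller glia stood at 5.89% of their level in rods, and microglial markers in rods at 43.0% of their level in Müller glia.

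The Cst3 model has 4 exons and 728 nt on the minus strand of chr2:148871722-148875692, and no annotated Cst3 transcript was in the table. Each of its 3 introns is annotated in M21, but no M21 transcript has all 3. It joins the 5′ exons of ENSMUST00000144845.1, an annotated transcript that stops inside the coding sequence, to the 3′ exons of ENSMUST00000028938.6, the annotated full-length transcript. The added intron has 248 nt (chr2:148875384-148875631), ends 6 nt before the start codon and lies wholly in the 5′ untranslated region. The model holds the coding exon stretches of the full-length transcript, and so its open reading frame of 140 codons and its predicted protein. Its bases were taken from M21, so base changes in the reads were not examined. The start of that shared frame (chr2:148875318-148875377) is shown with the start codon in capitals, because it marks where the model and the full-length transcript share a coding sequence.
Cst3 coding start: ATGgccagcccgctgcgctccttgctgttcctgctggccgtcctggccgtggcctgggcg
Genes with every count on unannotated isoforms made up 11.6% of the 9868 Ensembl genes with at least 100 counts, and 2 of the 5 genes here, Cst3 and Ctsl, were among them. Cst3 was selected on that count, so its presence there is a description. Unannotated isoforms held 91.1% (91.1 to 91.2) of the counts of the 5 genes, 10.0% (9.84 to 10.2) without Cst3, and 6.35% over the whole table.

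**Figure D1:**
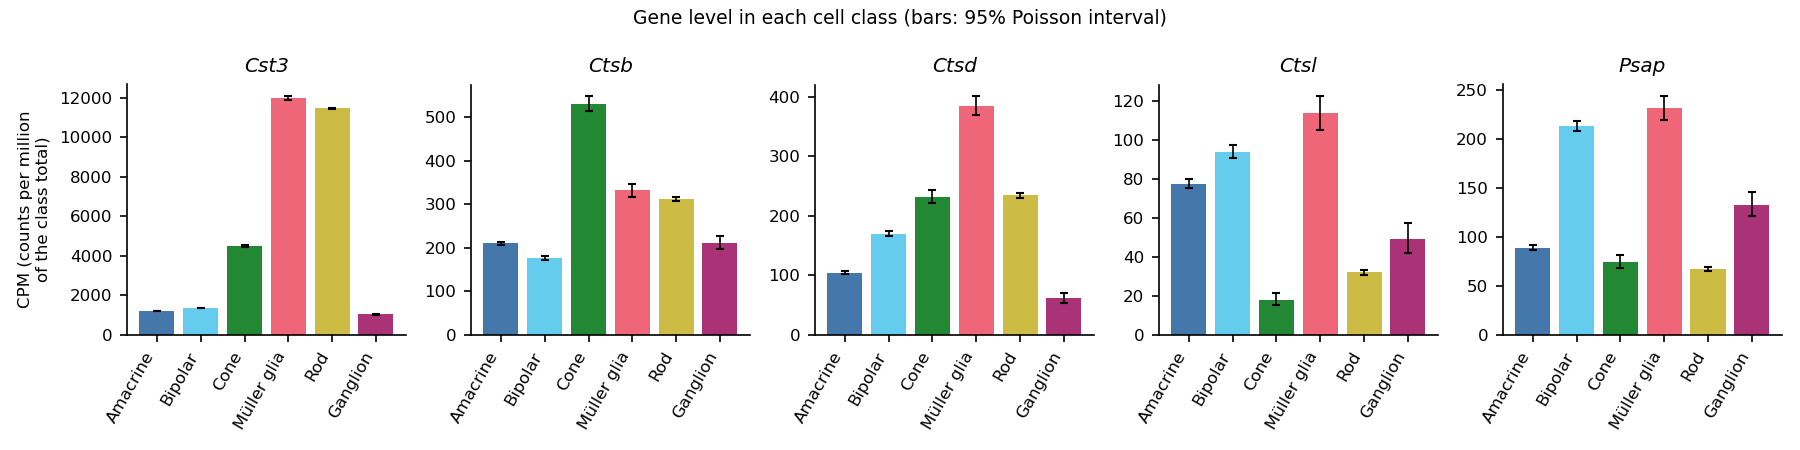
Level of each gene in the 6 cell classes, in CPM on a linear axis from 0, with a separate scale for each gene. Error bars are exact 95% Poisson intervals. Müller glia are highest for Cst3, Ctsd, Ctsl and Psap and cones for Ctsb, and rods are next to Müller glia for Cst3, Ctsb and Ctsd.

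Ctsb (ENSMUSG00000021939.8), for cathepsin B, a main target of cystatin C, was highest in cones. Cones had 531 CPM (515 to 548), Müller glia 332 CPM (318 to 347) and rods 311 CPM (307 to 316). Ganglion cells had 211 CPM, amacrine cells 210 CPM (206 to 214) and bipolar cells 177 CPM (172 to 182). The range from cones to bipolar cells was 3.01-fold, and the intervals of ganglion cells (196 to 227) and amacrine cells overlapped. Being highest in cones was the case for 8.29% of all genes with at least 100 counts. Its single isoform, ENSMUST00000006235.8, has the 10 exons and the full frame of 339 codons of the annotated transcript. The deposited model ends at 63143132 on chromosome 14 where the annotation ends at 63145923, so its last exon has 901 nt in place of 3692 nt.

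Ctsd (ENSMUSG00000007891.16), for cathepsin D, was highest in Müller glia at 385 CPM (369 to 400.5). Rods had 234 CPM (230.0 to 238) and cones 231 CPM (221 to 243), whose intervals overlapped. Bipolar cells had 170 CPM, amacrine cells 104 CPM and ganglion cells 61.8 CPM (53.9 to 70.6). Müller glia stood 1.64 times above rods and 6.22 times above ganglion cells. All 27196 counts were on ENSMUST00000151120.8, the longer coding form shown above, in all 6 classes. Its frame has 410 codons against 404 in the shorter form, which was not listed. The deposited model has the introns of the longer form but the 2 ends annotated for the shorter one, at 142375917 and 142387857 on chromosome 7.

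Ctsl (ENSMUSG00000021477.9), for cathepsin L, ran against the photoreceptor pattern of Cst3. Müller glia had 114 CPM (106 to 123), bipolar cells 94.2 CPM (90.7 to 97.8) and amacrine cells 77.7 CPM (75.2 to 80.2). Ganglion cells had 49.3 CPM (42.2 to 57.2), rods 32.0 CPM (30.5 to 33.5) and cones 17.9 CPM (15.0 to 21.3). No neighbouring intervals overlapped, and the cone level was 6.35 times lower than that of Müller glia. Rods and cones, next to Müller glia for Cst3, were thus the lowest 2 classes for Ctsl.

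All 9255 Ctsl counts were on 3 unannotated isoforms. The leading isoform held 93.3% of them (92.8 to 93.8) and between 85.0% in ganglion cells and 96.9% in bipolar cells. It has 9 exons, joins the 5′ end of the incomplete annotated transcript ENSMUST00000220737.1 to the introns of ENSMUST00000021933.7, and keeps the annotated frame of 334 codons, so all 8 of its introns are annotated. As for Cst3, what is unannotated in it is the combination of a 5′ end with a full coding sequence. The deposited Ctsl models all end at 64363796, with a last exon of 405 nt against 987 nt in ENSMUST00000021933.7 and 4864 nt in ENSMUST00000222517.1.

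The Ctsl isoform with the 4 added nt shifts the frame. Its reading frame from the annotated start codon stops after 86 codons, 645 nt before the last exon junction. It made up 81 of 698 Ctsl counts in Müller glia, or 11.6% (9.32 to 14.2). Its share was 2.27% (1.81 to 2.80) in amacrine cells, 2.93% (2.33 to 3.63) in bipolar cells and 4.68% (3.75 to 5.77) in rods. In cones it was 6.87% on 9 counts (3.19 to 12.6), and in ganglion cells 3.47% on 6 counts (1.28 to 7.40). The Müller glia interval lay above those of amacrine cells, bipolar cells, rods and ganglion cells and overlapped that of cones. The donor site that gives the added bases is annotated in ENSMUST00000223494.1, a transcript classed as a target of nonsense-mediated decay, but its junction to the next exon is not in M21.

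Another minor Ctsl isoform skips the 137 nt exon that holds the start codon (chr13:64369028-64369164) through an unannotated junction of 1997 nt. The next in-frame start codon lies 55 codons downstream and leaves 279 of 334 codons. Its share was 11.6% in ganglion cells on 20 of 173 counts (7.21 to 17.3), 4.97% in rods (4.00 to 6.08), 3.79% in amacrine cells (3.20 to 4.45) and 2.72% in Müller glia (1.65 to 4.22). Bipolar cells had 4 counts of it among 2732, a share of 0.146% (0.0399 to 0.374), and cones 1 count among 131. The ganglion cell interval lay above all 5 others, on few counts. The 2 minor forms therefore had different leading classes.

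**Figure D2:**
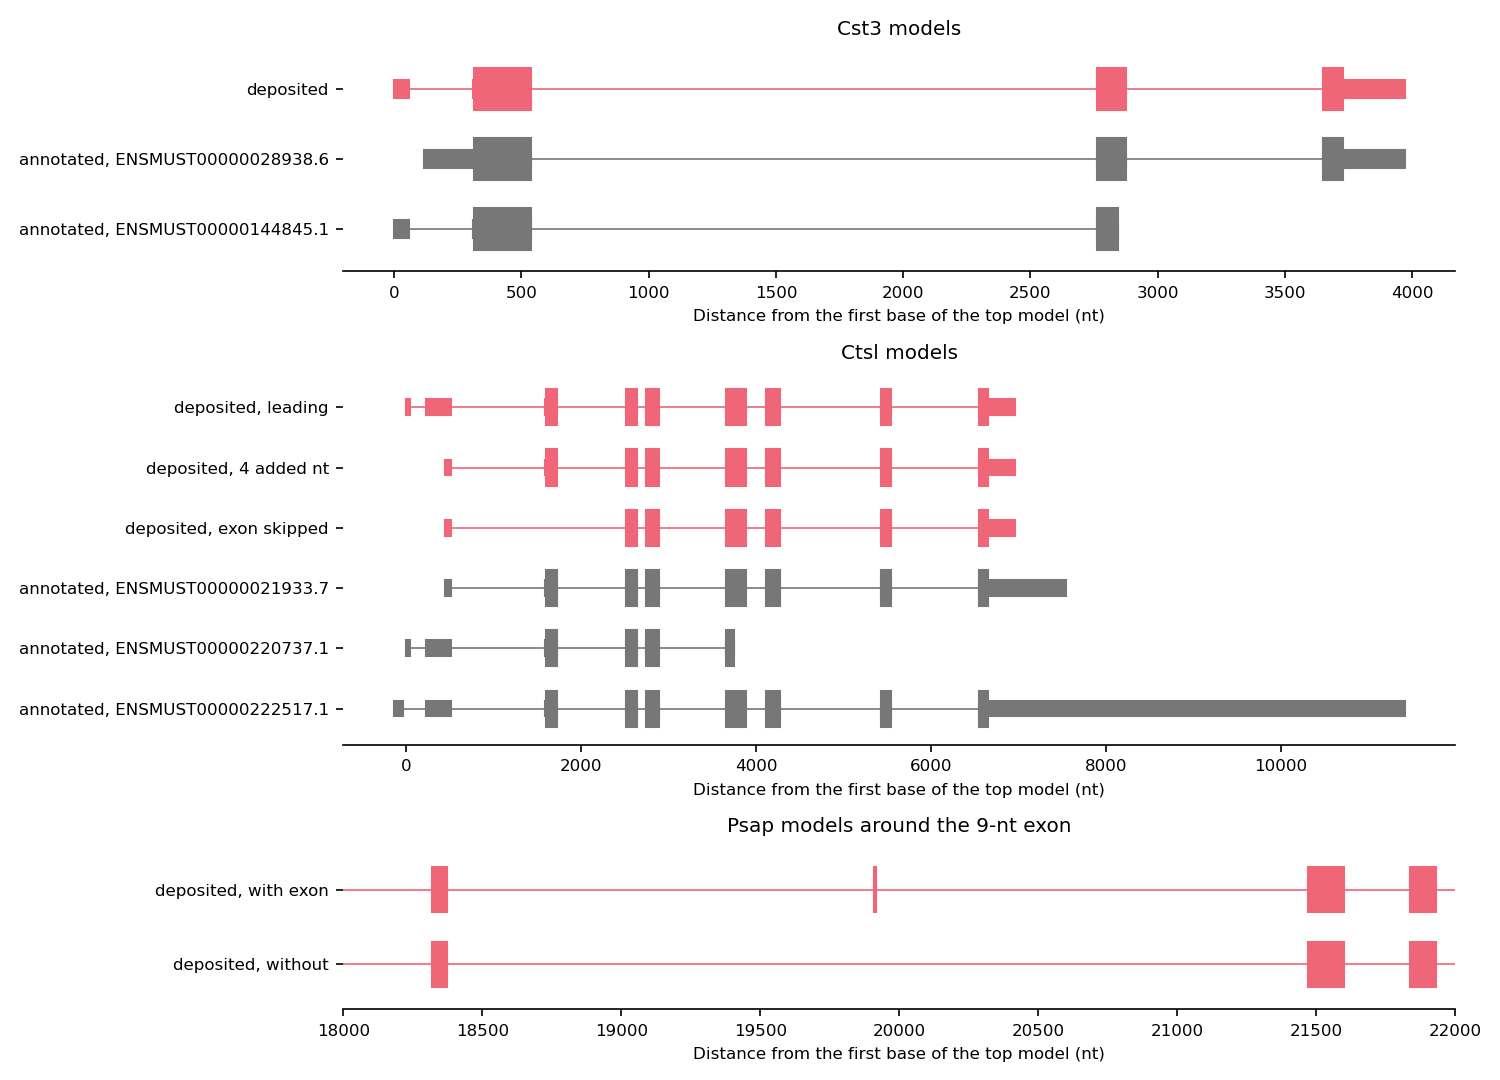
Deposited models (red) and GENCODE M21 transcripts (grey) of Cst3, Ctsl and the middle of Psap, drawn to scale against the distance in nt from the first base of the top model. Tall boxes mark exon bases between the annotated start and stop codons, low boxes exon bases outside them and lines introns. The Cst3 model shares its 5′ exons with the partial annotated transcript and its 3′ exons with the full-length one.

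Psap (ENSMUSG00000004207.14), on chr10:60277628-60302597, was high in Müller glia and bipolar cells. Müller glia had 231 CPM (219 to 244) and bipolar cells 213 CPM (208 to 218), followed by ganglion cells at 133 CPM (121 to 145). Amacrine cells had 88.9 CPM (86.3 to 91.6), cones 74.7 CPM (68.6 to 81.3) and rods 67.3 CPM (65.2 to 69.5). The intervals of cones and rods overlapped, and the range from Müller glia to rods was 3.43-fold.

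The 2 Psap isoforms divided by class far more than the gene did. ENSMUST00000179238.7 includes the 9 nt exon and encodes 557 codons, and ENSMUST00000105465.7 leaves it out and encodes 554. The form without the exon held 969 of 1418 counts in Müller glia, a share of 68.3% (65.8 to 70.8). Rods followed with 23.1% (21.7 to 24.5) and amacrine cells with 9.44% (8.58 to 10.4). The share was 3.30% (1.97 to 5.16) in cones, 3.0% (1.65 to 4.99) in ganglion cells and 1.65% (1.35 to 2.00) in bipolar cells. Müller glia was thus the only class here in which the shorter form led, and rods stood apart from the other neurons. In CPM the form without the exon was at 158 in Müller glia and 15.5 in rods, 10.2 times lower, and at 2.46 to 8.39 in the other 4 classes. The form with the exon was highest in bipolar cells at 209 CPM, then in ganglion cells at 129 CPM, with 73.2 CPM in Müller glia and 51.8 CPM in rods. The high Psap level of Müller glia and that of bipolar cells thus came from different isoforms. Beside these shares, the microglial markers summed to 1720 CPM in Müller glia and 740.1 CPM in rods, and their part in the 2 shares was not tested.

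More than 1 isoform was listed for 2 of the 5 genes. Psap met the rule for a switch of the dominant isoform, which asks that the leading isoform differ between 2 classes that each hold 100 or more counts of the gene, and that its share differ by at least 50 percentage points. The widest difference was 66.7 points, between bipolar cells and Müller glia. Ctsl did not, since the same isoform led in all classes. Over all genes with 2 or more isoforms and enough counts, 486 of 4739 (10.3%) met that rule in some pair of classes. Of isoforms with at least 100 counts, 6.65% had a CPM in Müller glia at least 2 times that in each other class. Among the 8 isoforms here 2 did, Psap without its small exon and Ctsl with the 4 added nt, the latter 4.79 times above bipolar cells.

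**Figure D3:**
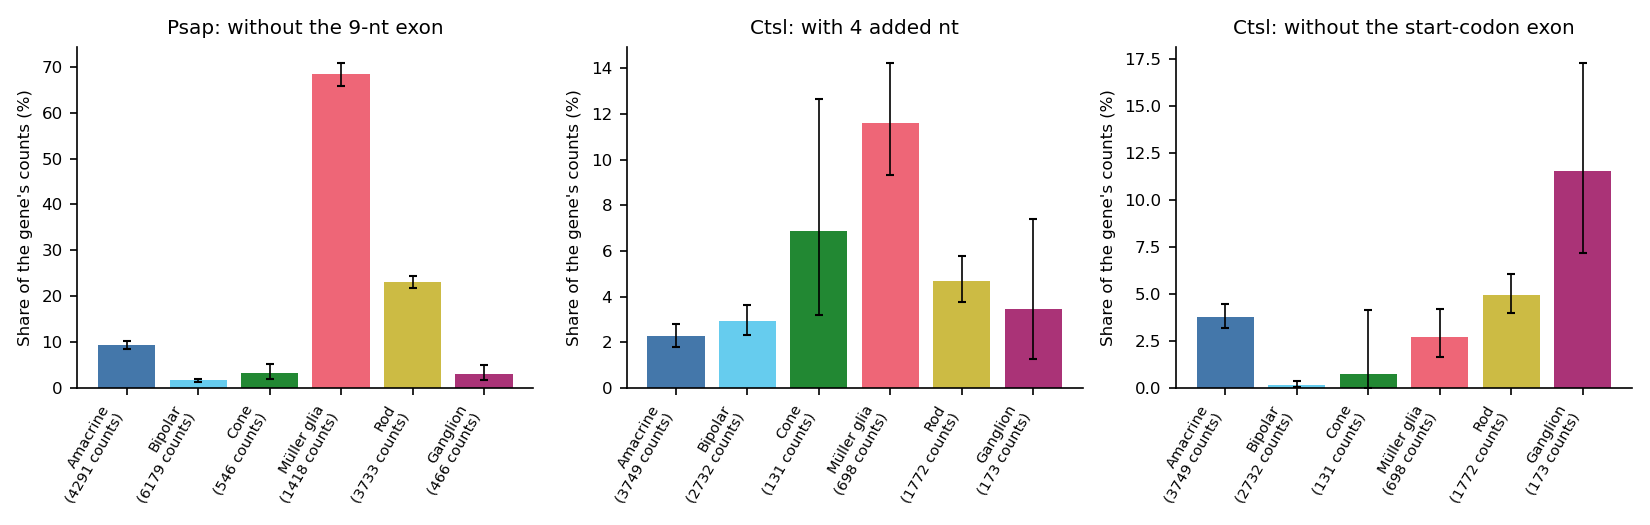
Share of the gene's counts held by Psap without its 9-nt exon, Ctsl with 4 added nt and Ctsl without the exon of the start codon, in percent for each class, with exact 95% Clopper-Pearson intervals and the gene's counts under each class. Müller glia are at 68.3%, 11.6% and 2.72%, and ganglion cells lead only the right panel, on 173 counts.

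The Psap exon was set beside other very short exons. Isoform pairs that differed by a single internal exon of at most 27 nt gave 39 exons with at least 100 counts in both Müller glia and bipolar cells. For 11 of the 39 (28.2%) inclusion was lower in Müller glia by at least 25 percentage points, and the Psap exon ranked 5 by size of this difference, at 31.7% against 98.3%. The opposite difference of this size was found for 1 of the 39, in Tpd52, named after its value was seen. Against rods, 11 of 40 exons (27.5%) met the same limit, Psap included, with 31.7% against 76.9%. The Psap difference was therefore among the larger ones of a difference that 28.2% of comparable exons showed.

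**Figure D4:**
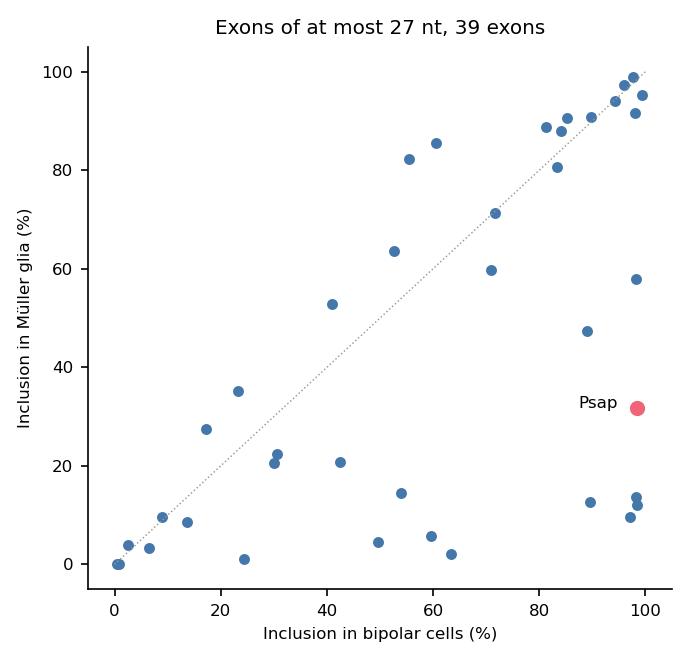
Inclusion of 39 exons of at most 27 nt in bipolar cells and Müller glia, in percent of the counts of the isoform pairs with and without the exon. The dotted line marks equal inclusion, and Psap, at 98.3% and 31.7%, is among the 11 exons at least 25 points below it.

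In Müller glia 4 of the 5 genes were highest, and 17.0% of all genes with at least 100 counts were highest there. None of the 5 reached 2 times every other class there, a level that 8.28% of all genes reached. No test was made of these counts, and the 5 genes were chosen with earlier results known. Their spread between the highest and lowest class, 3.01 to 11.6-fold, can be set beside a median of 6.08-fold (quartiles 3.02 and 19.4) over the 6350 such genes with counts in every class.

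The wider lysosomal gene set was described from 6 lists, of which 72 genes had at least 100 counts. Of these 29 (40.3%) were highest in Müller glia, against 17.0% of all genes with at least 100 counts. At least 2 times every other class there were 15 (20.8%), against 8.28% of all such genes. Among 8 genes of a list of further cathepsins and Lgmn, 5 were highest in Müller glia and 4 of them met the 2-fold rule. Ctsh, a lysosomal aminopeptidase, was at 589 CPM in Müller glia and 35.0 CPM in rods, the next class. Ctss, the cathepsin best known from microglia and antigen presentation, was at 420 CPM in Müller glia and 167 CPM in rods, and 0.570 CPM in ganglion cells. Lgmn encodes the asparaginyl endopeptidase legumain, which matures cathepsins and which cystatin C also inhibits. It was highest in rods at 339 CPM and lowest in ganglion cells at 60.1 CPM. Ctsf, for cathepsin F, was highest in bipolar cells at 480 CPM. Microglial and macrophage markers were also highest in Müller glia (Cd74 at 872 CPM there and 75.5 CPM in rods), and their part in these cathepsin levels was not tested.

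Of 16 cystatin genes besides Cst3, 3 were listed and 2 had at least 100 counts. Neither shared the pattern of Cst3. Cstb, for a cystatin that acts inside cells, had 767 CPM in amacrine cells and 258 CPM in rods, its lowest class. Cst6, a secreted cystatin, had 112 CPM in ganglion cells, 77.4 CPM in amacrine cells and 3.88 CPM in rods.

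Saposins activate enzymes of sphingolipid breakdown, and 14 genes of lysosomal lipid hydrolysis had enough counts. Müller glia were highest for 8 of them, but none reached 2 times every other class. Smpd1, the acid sphingomyelinase, had 206 CPM in cones and 117 CPM in rods.

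Among 17 other lysosomal enzymes, 7 were highest in Müller glia and 4 met the 2-fold rule. Fuca1, the lysosomal fucosidase, had 310.4 CPM in Müller glia and 146 CPM in bipolar cells, and Gaa, the acid glucosidase, 21.5 and 8.48 CPM. Ppt1, which removes fatty acids from proteins, was highest in rods at 62.7 CPM. Of 18 lysosomal membrane proteins, 5 (27.8%) were highest in Müller glia, against 17.0% of all genes with at least 100 counts. Amacrine cells were highest for 6, against 19.7% of all such genes. Cd63, a tetraspanin of late endosomes, had 2051 CPM in Müller glia and 404 CPM in bipolar cells. The related genes Laptm4a and Laptm4b differed, with Laptm4a at 1194 CPM in Müller glia and 293 CPM in amacrine cells, and Laptm4b at 890.0 CPM in cones and 740.4 CPM in rods.

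Of 13 sorting factors, partners and regulators, 4 (30.8%) were highest in Müller glia, against 17.0% of all genes with at least 100 counts. Ganglion cells were highest for another 4, against 15.0% of all such genes. Gpr37, which encodes a receptor for prosaposin, was at 878 CPM in Müller glia and 5.88 to 32.0 CPM in the other classes, 27.5 times below at the closest. Grn, for progranulin, a binding partner of prosaposin, had 40.6 CPM in Müller glia and 15.0 CPM in rods. M6pr, a mannose 6-phosphate receptor that carries enzymes to lysosomes, was highest in ganglion cells at 85.5 CPM.

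**Figure D5:**
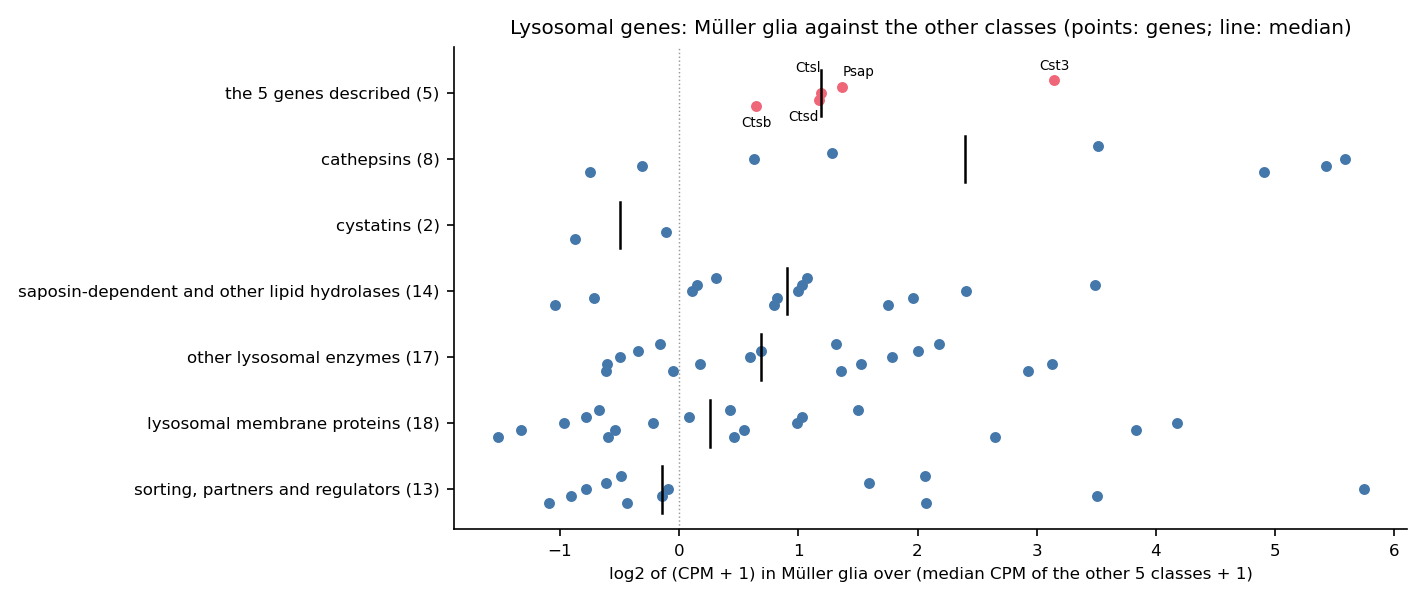
Each point is a gene with at least 100 counts, placed by the log2 of its CPM plus 1 in Müller glia over the median CPM of the other 5 classes plus 1. Rows are the 5 genes described and the 6 lists, with the number of genes in brackets, and a black line marks each row's median. The 5 genes all lie above 0, from 0.65 for Ctsb to 3.15 for Cst3.

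The genes most like each of the 5 were found by Pearson correlation of log2(CPM + 1) over the 6 classes, among 5226 genes with at least 1000 counts. These values describe 6 columns that differ in depth and may share libraries, which are not given. For Cst3 they were Ier3 (0.982), Anapc10 (0.972) and Wwtr1 (0.968). Ier3 was at 675 CPM in rods, 612 CPM in Müller glia and 391 CPM in cones, against 61.8 to 72.1 CPM in the inner neurons. For Ctsb they were Sirt2 (0.958), Mrrf (0.949) and Slc31a1 (0.936), and for Ctsd Eci1 (0.997), Cdk5rap3 (0.985) and Hadh (0.984). For Ctsl they were Gadd45b (0.981), Rpl11 (0.979) and Gyg (0.977), and for Psap Pcgf3 (0.970), Cntnap2 (0.942) and Rpl12 (0.935). None of the 15 was another of the 5 genes or a gene of the 6 lists.

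Promoter windows, 250 bases before to 50 after the RefSeq start on GRCm38.p6, were at hand for 4 of the 5 genes, with 2 windows for Psap and none used for Ctsb. They were searched for CACGTG, the core of the site that lysosomal gene regulators of the TFEB family bind, which reads the same on both strands. Of 32851 windows of this length, 7.15% held it. Ctsd had 2 matches and Ctsl 1, and the letters were not in the windows of Cst3 and Psap. The Cst3 window, chr2:148875463-148875762, follows the RefSeq start. The listed Cst3 model begins upstream of that start, at 148875692, so most of the window lies within the model and little of it before. The matches are shown in capitals with their neighbouring bases, on the minus strand, at chr7:142388055-142388077, chr7:142387908-142387937 and chr13:64370739-64370768.
Ctsd, distal: tccccCACGTGacctgtatccag
Ctsd, proximal: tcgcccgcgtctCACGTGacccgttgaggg
Ctsl: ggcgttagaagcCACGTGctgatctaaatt
The Ctsl match spans 64370751 to 64370756, across the 5′ end of the leading Ctsl model at 64370753. The genes with a match, Ctsd and Ctsl, were both highest in Müller glia and differed in the order of the other classes. Cst3 had the same order of classes as Ctsd. Its window held little sequence before the listed model, so it cannot be set against Ctsd as a gene without a match. Whether the matches bear on these levels was not tested.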

How the data were processed

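The authors deposited a table of isoform counts, whole numbers in 6 columns with 1 for each cell class. No column names a library, so each was treated as a pool, and 0 columns were unused. The labels' protocol text ends before read processing, so whether reads were collapsed to molecules, how cells were typed and how isoforms were filtered are not given in the sources used here. The deposited models name FLAIR as their source, per the file contents, and the submitters' processing notes name build mm10. Of 122601 distinct splice junctions in the models, 115691 (94.4%) were in GENCODE M21 on GRCm38.

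Counts were divided by the column total and scaled to 1000000 (CPM). Isoforms with an Ensembl transcript identifier count as annotated. Reading frames were read from M21 transcript sequence along each model. Rules of size (at least 100 counts, 2-fold, 50 percentage points) replaced tests. They were run on simulated counts that held counting error only, with no spread between mice or libraries. Their error rate in these data is therefore not known. The 5 genes, the lists and the rules were chosen with earlier results of these data known. Named genes were the 5, the 3 most like each, and in each list the 2 with the most counts and the 2 with the most counts among those 2-fold above every other class; results for some of them are not reported here. Python 3.11.15 with numpy 2.4.6, pandas 2.3.3 and scipy 1.17.1 was used. Alternatives were other scalings (trimmed mean of M-values, median of ratios, totals without the most abundant genes), equal depth, other minimums and folds, summing isoforms with the same introns, and other measures of likeness.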

Additional observations from a re-analysis of the deposited data

Results flagged for a closer look

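Reads on the Ctsl locus also appeared outside the Ctsl counts. Single-exon isoforms, 2 in number, on the minus strand lie inside the last exon of the annotated transcript ENSMUST00000222517.1 but are counted under other identifiers. The first, at chr13:64360511-64361452 under a locus named by position, had 23 counts (8 in Müller glia, 7 in bipolar cells, 7 in rods and 1 in amacrine cells). The second, at chr13:64361306-64361833 under Gm49230, had 24 counts, 15 in bipolar cells and 9 in rods. Both are small beside the 9255 counts of Ctsl itself.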

How the results depend on the processing

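The classes that led were kept under every scaling tried except for Cst3, whose ratio of Müller glia to rods was 1.05 and became 1.18 with the trimmed mean of M-values, 1.35 with the median of ratios and 0.965 without the 20 most abundant genes, where rods led. Under the same 3 scalings, Cst3 in Müller glia over ganglion cells was 13.7, 13.8 and 12.4, Ctsb in cones over bipolar cells 3.30, 3.39 and 3.41, and Psap in Müller glia over rods 3.88, 4.43 and 3.17. With the first 2, Ctsd in Müller glia over ganglion cells was 7.35 and 7.36 and Psap in Müller glia over bipolar cells 1.16 and 1.31. Ctsl in Müller glia over bipolar cells was 1.46 with the median of ratios. The largest shift between columns was 1.34-fold. Counts of all genes moved with the minimum, and so did the number of genes tested, 9868 in the main setting. With at least 10 counts 2595 of 13393 genes were highest in Müller glia and 1496 were 2-fold there. The numbers were 809 and 321 of 5226 with 1000 counts, and 1069 and 517 of 5879 at equal depth. At 1.5-fold, 1 of the 5 genes was called, Ctsd, beside 1066 of all 9868 genes. Switches over all genes were 1828 with 20 counts per class, 147 with 500 and 1021 at 25 points. With at least 1000 counts 19 of 40 list genes were highest in Müller glia. Smpd1 in cones passed 2-fold under both the trimmed mean and the median of ratios. At equal depth unannotated isoforms held 89.5% of the counts of the 5 genes, since rods, where most Cst3 counts are, then weigh less. The likeness lists were the least stable: of 15 genes, 5 remained with a root mean square difference, 9 with a pseudocount of 10 and 8 with 5000 counts. Isoform shares were recomputed for Psap without the small exon in Müller glia and rods. For Ctsl they were recomputed for the form with the 4 added nt in Müller glia and the form without the start-codon exon in ganglion cells. Summing isoforms with the same introns and minimums of 10 counts or 2 exons could not change these shares, since no isoform was merged or removed. At equal depth Psap was at 68.2% and 23.5% and Ctsl with the 4 added nt at 11.5%, within their intervals. Ganglion cells set that depth, so their share could not change. Shares in other classes were not recomputed. No paired analysis was possible because libraries are not told apart in the table, and none could be left out. A count of 0 allows up to 0.855 CPM in ganglion cells and 0.0541 CPM in rods.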
